A study of Homo sapiens with 4 samples.

Results

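The annexin genes of FaDu cells, an established line from a squamous carcinoma of the hypopharynx, were followed through hypoxia and TET1 knockdown. The members were the 10 genes named ANXA1, ANXA2, ANXA3, ANXA4, ANXA5, ANXA6, ANXA7, ANXA9, ANXA10 and ANXA11, taken by symbol from the 62077 rows of a gene expression table. The family was picked because ANXA9 was among the largest gains after TET1 knockdown, so the TET1 knockdown values of these genes are a description and support nothing. Every member had a mean of at least 1 FPKM over the libraries, as did 15057 genes of the table in all. FPKM are fragments scaled to exon length and to the number mapped, a scale that allows levels to be compared between genes.

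The cells formed 4 groups, profiled by RNA-Seq, with 1 library each. The normoxic groups were N-scr, which carried a scrambled control hairpin, and N-si, in which TET1 was knocked down (labelled TET1-si). The hypoxic groups, H-scr and H-si, carried the same constructs and were held for 19 h at 1% O2. Normoxic and hypoxic groups alike were kept at 5% CO2. All 4 groups were FaDu cells infected with a lentiviral pLKO.1-puro hairpin vector and grown in serum-containing medium. The study's supplement lists a single hairpin target for TET1, so effects of that hairpin and of TET1 loss cannot be told apart. Values without named libraries follow the order N-scr, H-scr, N-si, H-si. The study asked which hypoxia-responsive genes depend on TET1, a dioxygenase that oxidizes 5-methylcytosine in DNA.

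Annexins are cytosolic proteins that bind acidic phospholipids of membranes when calcium rises, through a conserved core of repeats, and each has its own amino-terminal tail. They organize membrane domains, take part in vesicle traffic and exocytosis, and gather at tears in the plasma membrane during its repair. Several pair with small calcium-binding proteins of the S100 family, and squamous epithelia express many of them strongly.

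The libraries held 22345000 to 24550000 reads, a depth recovered from the low FPKM values of single-exon genes. TET1 was low in every library but lower with the hairpin, at 0.129 FPKM in N-scr against 0.0493 in N-si, and at 0.331 FPKM in H-scr against 0.122 in H-si, on 11 to 76 reads. All 10 squamous epithelial markers were measured in every library, with a summed level of 6726, 8711, 2413 and 4137 FPKM. KRT5, KRT8 and KRT18, keratins of that list, were lower by 2-fold or more with the hairpin in both oxygen states and carried most of that sum. CDH1, EPCAM and JUP of the same list had responses above 0 in both (0.57, 0.41 and 0.50 under normoxia, 0.45, 0.68 and 0.27 under hypoxia), and the list's median TET1-si response was -0.41 under normoxia and 0.09 under hypoxia. Of 5 fibroblast markers only COL1A1 exceeded 0.241 FPKM (5.29 to 37.0 FPKM), COL1A2 was at 0, and the list summed to 5.30, 28.6, 14.1 and 37.2 FPKM. Of 5 leukocyte markers CD3E was at 0 and PTPRC at no more than 0.0101 FPKM, and the list summed to 22.5, 22.0, 27.3 and 29.0 FPKM, nearly all of it CD68. Of 3 endothelial markers on main chromosomes, KDR stayed at or under 0.0434 FPKM, and the list summed to 8.93, 17.8, 22.2 and 48.4 FPKM, mostly CDH5 (8.75, 16.0, 21.7 and 45.5 FPKM), with VWF at 0.160, 1.79, 0.457 and 2.94 FPKM. CDH5 was lowest in N-scr, then H-scr, then N-si, and highest in H-si, which is the order of ANXA9 below, and its part in any annexin difference was not tested.

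With 1 library per group no difference has a replicate check, and no test was run. Each comparison is a difference between single libraries on the log2(FPKM + 0.1) scale. Fold values and the 95% exact counting intervals carry no pseudocount. The intervals rest on approximate reads and cover counting error only. The responses share libraries, since each library enters 1 hypoxia comparison and 1 TET1-si comparison, so their values are given side by side and not as independent evidence.

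The family was dominated by 3 genes. In bulk RNA a smaller share of expressing cells and less RNA per cell cannot be told apart. ANXA2, which forms a complex with S100A10 under the plasma membrane and binds plasminogen activators at the cell surface, measured 1556 FPKM in N-scr with 2063 in H-scr, against 1950 in N-si and 1656 in H-si. ANXA1, the glucocorticoid-induced annexin that signals through formyl peptide receptors when secreted, measured 430.3, 397.8, 454.5 and 375.9 FPKM. ANXA5, the phosphatidylserine-binding annexin used to stain dying cells, measured 236.9, 212.2, 249.3 and 200.8 FPKM. These 3 genes made up 84.0%, 85.1%, 86.5% and 84.8% of the family's summed level, and ANXA2 alone 58.8% to 65.7%. The sum of the 10 genes was 2648, 3139, 3067 and 2632 FPKM. Without ANXA2 it was 1091, 1076, 1117 and 976 FPKM, so most of the movement of the sum was that of ANXA2. Processed copies of ANXA2 elsewhere in the genome were listed at no more than 0.0623 FPKM.

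**Figure D1:**
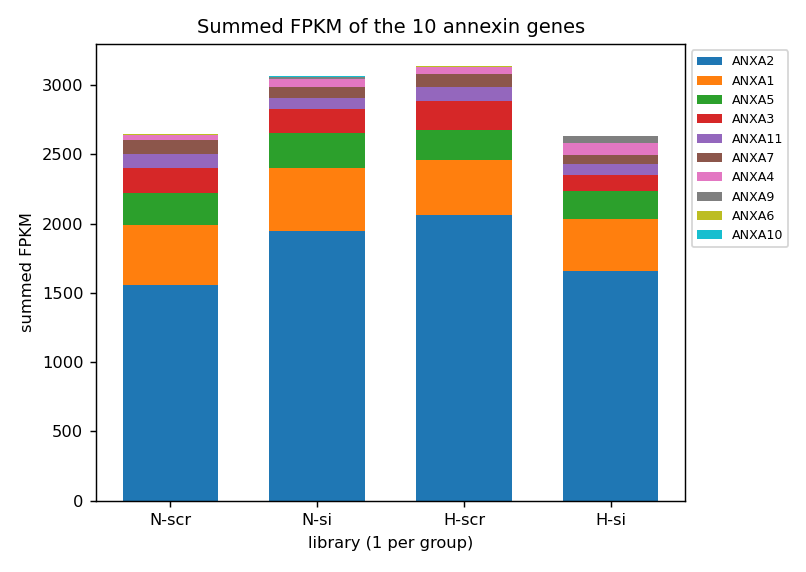
Stacked bars show the summed FPKM of the 10 annexin genes in each library (1 per group), coloured by gene, on an axis from 0. ANXA2 fills 58.8% to 65.7% of every bar, and ANXA9 becomes visible only in H-si, where it is 1.71% of the sum.

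Below these came ANXA3, ANXA11, ANXA7 and ANXA4, between 37.7 and 214.1 FPKM, and then ANXA6, ANXA9 and ANXA10, under 10 FPKM in both scrambled libraries. ANXA2 ranked 1 and ANXA1 ranked 2 in all 4 libraries. ANXA5 ranked 3 except in H-scr, where ANXA3 stood at 214.1 FPKM and ANXA5 at 212.2 FPKM with overlapping counting intervals. ANXA11 and ANXA7 had overlapping intervals in N-scr and N-si, ANXA10 and ANXA9 in N-scr, and ANXA6 and ANXA10 in H-si. ANXA9 went from rank 10 in N-scr to 8 in N-si and from 9 in H-scr to 8 in H-si, while ANXA6 went from 8 to 10 and from 8 to 9. ANXA4 ranked 7 in the other libraries and 5 in H-si.

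**Figure D2:**
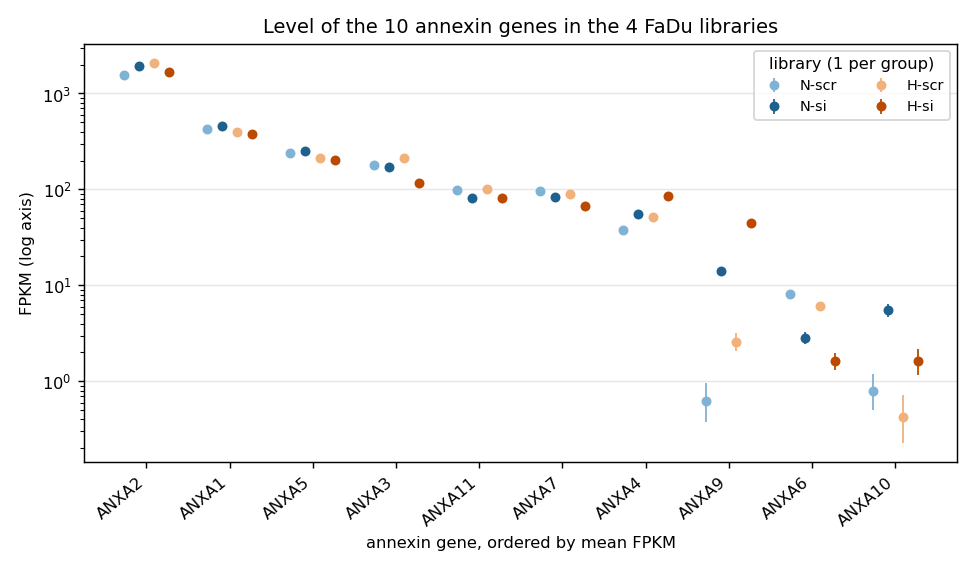
Points give the FPKM of each annexin gene (log axis) in the 4 libraries, with 95% exact counting intervals as bars, ordered by mean level. The abundant genes form tight groups, while ANXA9, ANXA6 and ANXA10 spread over the 4 libraries, with ANXA9 running from 0.621 to 45.0 FPKM.

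TET1 knockdown was accompanied by large differences in these 3 least abundant members and by small ones in the abundant members. Under hypoxia, 2 annexins (ANXA9 and ANXA10) were higher by 2-fold or more with the hairpin, beside 12.0% of all genes tested, and 1 (ANXA6) was at least 2-fold lower, beside 8.35%. Under normoxia 2 were higher (again ANXA9 and ANXA10), beside 12.1% of genes, and 1 was lower (again ANXA6), beside 5.56%. Genes at least 2-fold higher in both oxygen states were 6.51% of those tested, and those lower in both were 3.06%. Because the family was chosen on this contrast, nothing is read from these counts. The other 7 annexins stayed under 2-fold in both oxygen states. The family's median response was -0.20 under hypoxia, where that of all genes was 0.10, and 0.08 under normoxia, where that of all genes was 0.15.

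The promoters of the 3 genes that passed 2-fold after TET1-si are shown because TET1 acts on methylated cytosines, which in somatic cells lie mostly at CG dinucleotides. Each line is the 250 bases before the RefSeq start site, 5′ to 3′ on the gene's strand, with CG dinucleotides in capitals. The sequences come from the RefSeq promoter table of GRCh38.p14 and each matched hg19 exactly, at chr1:150954518-150954767 (plus strand) for ANXA9, chr4:169013438-169013687 (plus strand) for ANXA10 and chr5:150537341-150537590 (minus strand) for ANXA6.
ANXA9: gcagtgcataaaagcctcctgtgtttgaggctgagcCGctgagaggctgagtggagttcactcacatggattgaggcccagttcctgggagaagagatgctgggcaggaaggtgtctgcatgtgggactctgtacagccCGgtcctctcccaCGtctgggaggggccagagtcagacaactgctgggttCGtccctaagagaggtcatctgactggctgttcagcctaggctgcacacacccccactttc
ANXA10: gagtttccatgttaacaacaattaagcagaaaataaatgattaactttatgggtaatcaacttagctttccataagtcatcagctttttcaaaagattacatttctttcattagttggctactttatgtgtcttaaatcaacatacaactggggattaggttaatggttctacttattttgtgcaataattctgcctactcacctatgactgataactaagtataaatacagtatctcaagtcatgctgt
ANXA6: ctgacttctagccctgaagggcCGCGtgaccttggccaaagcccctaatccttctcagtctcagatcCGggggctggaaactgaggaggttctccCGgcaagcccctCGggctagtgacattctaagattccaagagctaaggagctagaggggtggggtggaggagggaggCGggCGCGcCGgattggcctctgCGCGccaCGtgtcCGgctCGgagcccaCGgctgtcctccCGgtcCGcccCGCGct
The RefSeq start of ANXA9 lay 275 bp inside the locus measured for FPKM, so its whole window falls within that locus. The starts of ANXA10 and ANXA6 lay 22 and 103 bp inside theirs. The ANXA9 window held 4 CG dinucleotides and that of ANXA10 held 0, while the ANXA6 window held 19. The median over 35116 RefSeq windows was 11, and 34.3% of windows held as few CG as ANXA9 or fewer, 6.1% as few as ANXA10 and 67.6% as few as ANXA6 or fewer. A second RefSeq start of ANXA6, inside the gene, had 10. Windows of the annexins that stayed under 2-fold ran from 0 in ANXA1 to 36 in 1 of ANXA4, with 28 in ANXA2 and 31 in ANXA5. The median of the 14 annexin windows was 18.5, and no relation of CG count to the TET1-si response was tested. The hypoxia-inducible factors bind a core spelled ACGTG or GCGTG, which was searched on both strands with overlaps counted. The ANXA9 window had 1 ACGTG match, the upstream ANXA6 window 2 ACGTG and 1 GCGTG, and the ANXA10 window had no match in these letters. The 2 ACGTG matches of ANXA6 are the 2 strands of a single CACGTG. Either core was found in 43.2% of all windows and in 8 of the 14 annexin windows. A match is a description of the letters, and no methylation or binding measurement is used here.

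ANXA9 (ENSG00000143412, chromosome 1, 150954493 to 150968110, plus strand, hg19) encodes an atypical annexin whose core has lost the usual calcium-binding residues, and which is known from keratinocytes. It measured 0.621 FPKM in N-scr with 2.60 in H-scr, against 14.1 in N-si and 45.0 in H-si, on approximately 19, 85, 460 and 1345 reads. Both TET1-si libraries were above both scrambled libraries, and in each knockdown state the hypoxic library was the higher. The level in TET1-si cells was 22.7-fold that in scrambled cells under normoxia (counting interval of the log2 ratio 3.84 to 5.25) and 17.3-fold under hypoxia (3.80 to 4.45). No other annotated gene overlaps the locus.

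ANXA10 (ENSG00000109511, chromosome 4, 169013666 to 169108841, plus strand), a divergent annexin that also lacks most calcium sites and is typical of gastric mucosa, was scarce. Scrambled cells had 0.796 FPKM in N-scr with 0.426 in H-scr, against 5.53 in N-si and 1.62 in H-si, on 22, 13, 166 and 44 reads. Both TET1-si libraries again lay above both scrambled ones, but here the hypoxic library of each pair was the lower. TET1-si cells had 6.95-fold the level under normoxia (2.17 to 3.53 on the log2 scale) and 3.79-fold under hypoxia (0.98 to 2.91). With a pseudocount of 1 in place of 0.1 the call under hypoxia was lost. ANXA10 was under 1 FPKM in both scrambled libraries and met the level filter through its TET1-si libraries, above all N-si. Its 2-fold calls therefore rest on a filter met where it was high. Long noncoding genes on the opposite strand overlap the locus, and no source says that strand was kept. The 1 of them with a row in the table was listed at 0 in all libraries.

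ANXA6 (ENSG00000197043, chromosome 5, 150480273 to 150537443, minus strand) encodes the large annexin with a duplicated core, which links membranes to the cortical cytoskeleton and to cholesterol handling in endosomes. It went the other way, with 8.22 FPKM in N-scr with 6.08 in H-scr, against 2.83 in N-si and 1.63 in H-si, on 502, 400, 185 and 98 reads. Both scrambled libraries lay above both TET1-si libraries. TET1-si cells had a 2.90-fold lower level under normoxia (-1.79 to -1.29 on the log2 scale) and a 3.72-fold lower level under hypoxia (-2.23 to -1.57). Of all genes tested, 2.78% lay below ANXA6 in this response under normoxia and 2.84% under hypoxia.

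**Figure D3:**
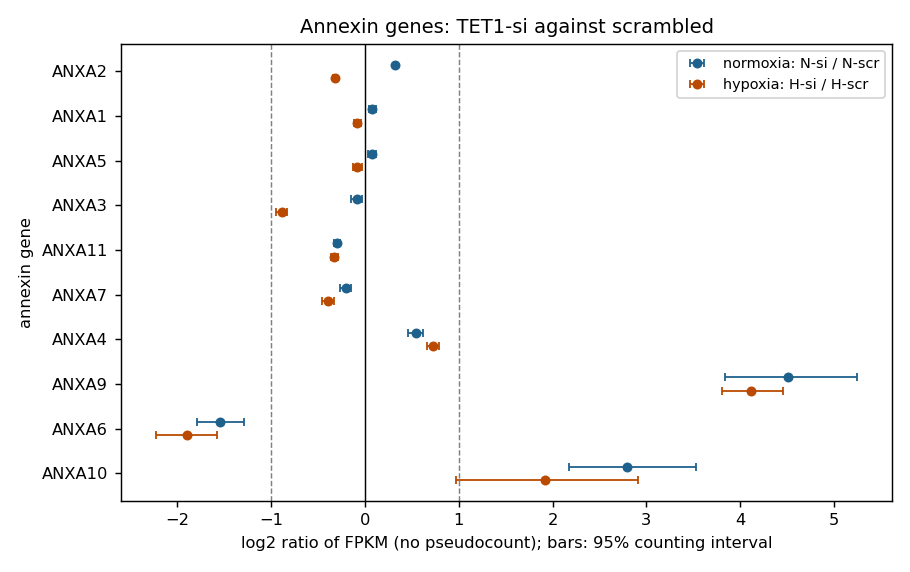
Points show the log2 ratio of FPKM, TET1-si over scrambled, for each annexin under normoxia (blue) and hypoxia (orange), with 95% counting intervals as bars and dashed lines at 2-fold. ANXA9 and ANXA10 lie right of 0 and ANXA6 left of it in both oxygen states. ANXA2 lies on opposite sides, as do ANXA1 and ANXA5, which stay closer to 0.

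ANXA3 and ANXA4 were intermediate. ANXA3, an annexin of neutrophils and many carcinomas, measured 180.7, 214.1, 170.3 and 115.9 FPKM. H-si was the low library. The TET1-si response was -0.09 under normoxia and -0.89 under hypoxia, a 1.85-fold lower level that came to at least 2-fold only with median-of-ratios scaling. ANXA4, an annexin of secretory epithelia found at the Golgi and apical membrane, measured 37.7, 52.1, 55.0 and 86.0 FPKM. H-si was the high library, and TET1-si cells had 1.46-fold the level under normoxia and 1.65-fold under hypoxia.

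Among the abundant annexins, ANXA2 differed in direction between oxygen states, with a TET1-si response of 0.33 under normoxia (0.31 to 0.34) and -0.32 under hypoxia (-0.33 to -0.30). Its level was highest in H-scr and lowest in N-scr. ANXA1 had responses of 0.08 and -0.08 and ANXA5 of 0.07 and -0.08, under normoxia and hypoxia. The values under normoxia turned below 0 for both genes with median-of-ratios and upper-quartile scaling, so their direction there depended on the scaling. ANXA7, the synexin of granule fusion, measured 96.8, 88.8, 84.2 and 67.5 FPKM and was lower in TET1-si cells by a response of -0.20 and -0.39. ANXA11, which tethers RNA granules to lysosomes, measured 99.0, 102.1, 80.8 and 81.6 FPKM, with responses of -0.29 and -0.32. Both TET1-si libraries of ANXA7 and ANXA11 lay below both scrambled libraries.

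Hypoxia was accompanied by a higher level of ANXA9 and, in TET1-si cells, a lower level of ANXA10. In scrambled cells, 1 annexin (ANXA9) was at least 2-fold higher in hypoxia, beside 12.9% of genes, and 0 were at least 2-fold lower, beside 4.53%. In TET1-si cells 1 was higher, again ANXA9, beside 12.5% of genes, and 1 was lower, ANXA10, beside 8.66%. In both knockdown states together 6.73% of genes were higher and 2.34% lower, and ANXA9 was the 1 annexin among them. Over the family the median response to hypoxia was -0.03 with the scrambled hairpin and -0.29 with TET1-si, beside 0.05 and 0.03 over all genes.

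With the scrambled hairpin ANXA9 had 4.18-fold the normoxic level in hypoxia (1.32 to 2.86 on the log2 scale), and with TET1-si 3.19-fold (1.52 to 1.83). The first of these rests on 19 reads in N-scr, hence its wider interval. ANXA10 was 3.42-fold lower in hypoxia in TET1-si cells (-2.30 to -1.30), and in scrambled cells its interval ran from -1.98 to 0.19, so a difference was not detectable at this depth. ANXA6 was lower in hypoxia by a response of -0.43 in scrambled cells (-0.63 to -0.24) and -0.76 in TET1-si cells (-1.16 to -0.43). ANXA4 was higher by 0.47 and 0.64. These last values stayed under 2-fold.

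Of the remaining members, ANXA2 and ANXA3 differed in direction between knockdown states and are described with the comparison of those states. ANXA1 had responses of -0.11 and -0.27 in scrambled and TET1-si cells, ANXA5 of -0.16 and -0.31, and ANXA7 of -0.13 and -0.32. The value of ANXA1 in scrambled cells turned to 0.0045 with TPM. ANXA11 had 0.04 in scrambled cells, which turned to -0.0064 with median-of-ratios scaling, and 0.01 in TET1-si cells with an interval from -0.02 to 0.05. Of the 40 counting intervals over 10 genes and 4 responses, 38 excluded 0. The exceptions were ANXA10 in scrambled cells and ANXA11 in TET1-si cells, both in hypoxia.

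**Figure D4:**
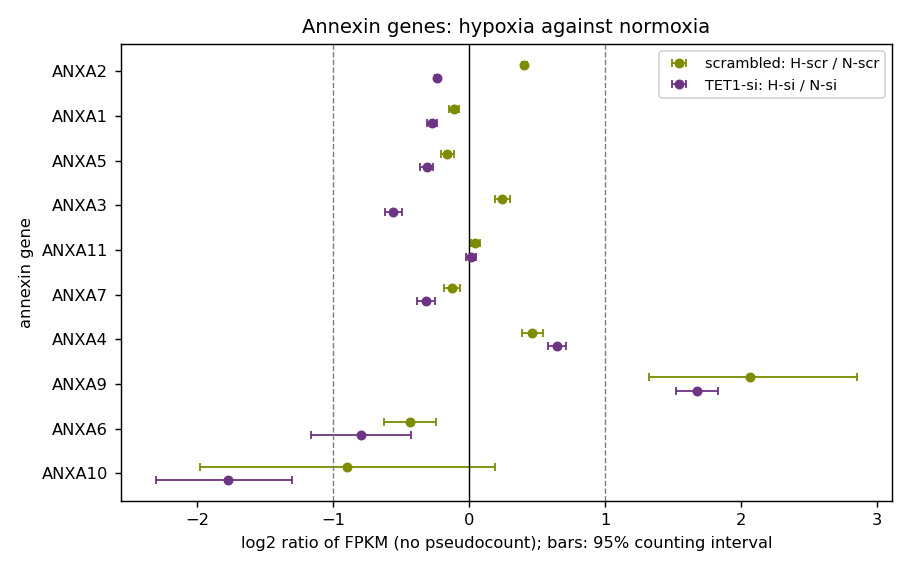
Points show the log2 ratio of FPKM, hypoxia over normoxia, for each annexin in scrambled (green) and TET1-si (purple) cells, with 95% counting intervals as bars and dashed lines at 2-fold. ANXA9 lies beyond 2-fold in both, and ANXA2 and ANXA3 change sides between scrambled and TET1-si cells.

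The hypoxia responses were next compared between knockdown states, by subtracting the scrambled response from the TET1-si response. This difference was below 0 for 9 of the 10 annexins, with a median of -0.21 beside -0.06 for all genes. ANXA4 was the exception at 0.18. The median of all genes was itself below 0, but turned to 0.0034 with upper-quartile scaling. The share of all genes below 0 was not counted, so nothing is read from the count of 9. ANXA11, at -0.03, turned above 0 with median-of-ratios and upper-quartile scaling. ANXA9, at -0.24, turned to 0.46 with a pseudocount of 1, so its direction and the count of 9 depended on the pseudocount. The members on the far side were ANXA10 (-0.95), ANXA3 (-0.80) and ANXA2 (-0.64). For ANXA10 the counting intervals of the responses overlapped, at -1.98 to 0.19 in scrambled cells and -2.30 to -1.30 after TET1-si. For ANXA2 hypoxia went with 0.41 in scrambled cells (0.39 to 0.42) but with -0.24 after TET1-si (-0.25 to -0.22). For ANXA3 it was 0.24 (0.19 to 0.30) and -0.56 (-0.62 to -0.49).

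The position of ANXA9 on chromosome 1 was examined through the 5 nearest measured genes on each side, which span 0.264 Mb. After TET1-si their median change was 0.60 under hypoxia and 0.56 under normoxia, beside 0.10 and 0.15 for all genes. Of them, 2 were at least 2-fold higher under hypoxia and 1 under normoxia, beside 12.0% and 12.1% of all genes. FAM63A, the next gene downstream, measured 2.93, 5.53, 9.02 and 24.8 FPKM, the same order of libraries as ANXA9, with responses of 1.59 under normoxia and 2.15 under hypoxia. BNIPL measured 0.622, 1.25, 0.894 and 12.0 FPKM, with responses of 0.46 under normoxia and 3.17 under hypoxia. The remaining 8 neighbours lay between -0.16 and 0.99. Around ANXA10 the median of 10 neighbours was 0.16 under hypoxia and 0.47 under normoxia, and around ANXA6 it was 0.08 and 0.24. Over the other 7 annexins the medians lay between -0.36 and 0.29. Neighbours at least 2-fold higher also numbered 2 around ANXA7 under hypoxia, and 3 around ANXA10 and 2 around ANXA11 under normoxia. The other such counts were 0 or 1, so having neighbours past 2-fold was not particular to ANXA9. The neighbour median, however, was highest around ANXA9 in both oxygen states. The counts are not alike in kind, since the ANXA10 neighbours span 5.49 Mb and include SNORA51, at 23.5 FPKM in N-si and 0 elsewhere. Whether position played a part was not tested.

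**Figure D5:**
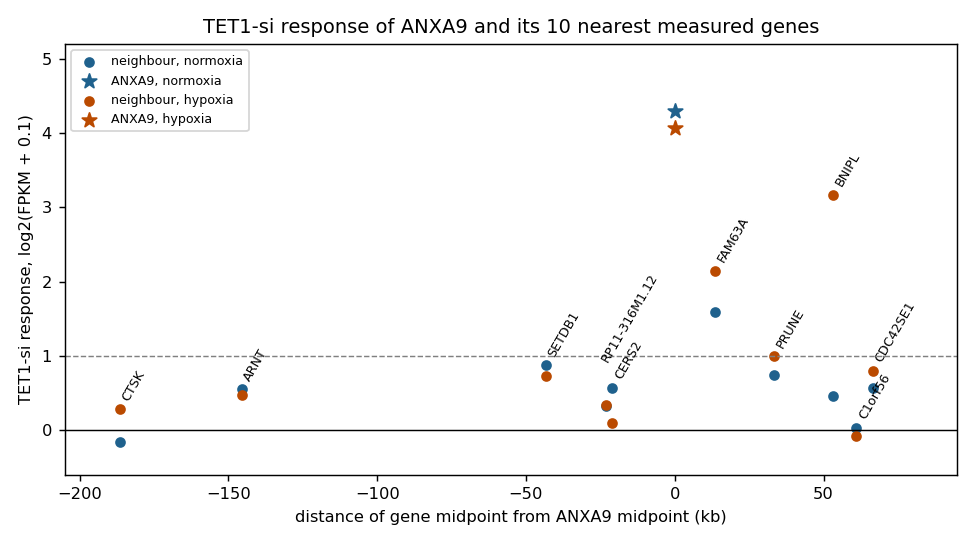
The TET1-si response on the log2(FPKM + 0.1) scale is plotted against distance in kb from ANXA9 for its 10 nearest measured genes (circles) and ANXA9 itself (stars), under normoxia (blue) and hypoxia (orange). ANXA9 lies at 4.30 and 4.06, FAM63A and BNIPL exceed the dashed 2-fold line under hypoxia, and the rest lie below it.

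The genes whose profile over the 4 libraries came closest to that of ANXA9 were MATN2, RGL3, EPHX2, RCSD1 and PADI4. Likeness was the Euclidean distance between profiles of log2(FPKM + 0.1), each centred on its own mean, over 11893 protein-coding genes. The distances were 0.46, 0.59, 0.60, 0.76 and 0.79, where the median gene lay at 4.49. MATN2, a matrix protein of filamentous networks, measured 2.65, 9.93, 45.7 and 115 FPKM. EPHX2, the soluble epoxide hydrolase, measured 0.286, 1.19, 5.14 and 14.2 FPKM. PADI4, a peptidylarginine deiminase, measured 0.145, 0.652, 2.39 and 8.34 FPKM. These genes were picked for their likeness to ANXA9 over the same 4 libraries, so nothing is read from the order they share with it.

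The S100 proteins and other partners of annexins were described from a list of 18 genes, of which 12 had a mean of at least 1 FPKM. S100A10, the partner of ANXA2, measured 525.0 FPKM in N-scr with 1008 in H-scr, against 1047 in N-si and 1586 in H-si. Both genes were above their N-scr level in every other library. Under hypoxia S100A10 was higher in TET1-si than in scrambled cells, whereas ANXA2 was lower. The ratio of S100A10 to ANXA2, in FPKM, was 0.337, 0.489, 0.537 and 0.957. The ratio of S100A11, a partner of ANXA1, to ANXA1 moved less, from 1.01 in N-si to 1.49 in H-scr. The levels of these pairs are transcript levels and say nothing of the amounts of complex.

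After TET1-si 0 of the 12 partners were at least 2-fold higher in either oxygen state, beside 12.0% of all genes under hypoxia and 12.1% under normoxia. S100A10 came close under normoxia, at 1.99-fold. DYSF, a listed partner below the level filter, was more than 2-fold higher in both oxygen states. Lower were 2 under hypoxia (PLAT and CD44), beside 8.35%, and 1 under normoxia (PLA2G4A), beside 5.56%. PLAT is the tissue plasminogen activator and CD44 the hyaluronan receptor. The list's median was -0.22 under hypoxia and -0.16 under normoxia, beside 0.10 and 0.15 for all genes. In hypoxia 3 partners were higher (S100A6, S100A4 and PLAT) and 1 lower (PLA2G4A) in scrambled cells, beside 12.9% and 4.53% of all genes, with a median of 0.17 beside 0.05. With TET1-si 2 were higher (S100A6 and S100A4) and 1 lower (CD44), beside 12.5% and 8.66%, with a median of 0.15 beside 0.03. S100A6, a partner of several annexins, was among them in both states, at 219.7, 461.3, 246.4 and 567.8 FPKM, with responses of 1.07 and 1.20. S100A4, a metastasis-associated S100 protein, measured 2.61, 24.5, 1.45 and 17.8 FPKM, with responses of 3.19 and 3.53. Its values rest on approximately 18, 181, 11 and 120 reads, few of them in the normoxic libraries. FPR1, FPR2 and FPR3, the formyl peptide receptors of ANXA1, were listed at 0 in all 4 libraries.

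Membrane repair genes, which act with annexins at plasma membrane tears, were followed in a list of 23, of which 21 passed the level filter. After TET1-si under hypoxia 0 were higher and 2 lower (CAV1 and SYT7), beside 12.0% and 8.35% of all genes, so the share lower was close to that background. Under normoxia 1 was higher (SNAP23) and 0 lower, beside 12.1% and 5.56%. The list's medians were 0.27 and 0.19, beside 0.10 and 0.15 for all genes. In hypoxia 2 were higher in scrambled cells (SYT7 and STX4) and 1 with TET1-si (AHNAK), and 0 were lower in either, beside 12.9% and 12.5% of all genes higher and 4.53% and 8.66% lower. The medians were 0.20 and 0.28, beside 0.05 and 0.03. DYSF, the dysferlin of muscle membrane repair and a member of both lists, did not reach a mean of 1 FPKM. It measured 0.246, 0.513, 1.01 and 1.83 FPKM, a TET1-si response of 1.68 under normoxia and 1.66 under hypoxia.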

How the data were processed

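RNA-Seq of 4 FaDu libraries was used, 1 per group as named in the labels. The authors prepared TruSeq mRNA libraries, sequenced them on a HiSeq instrument (100 bp reads, single end in the labels and paired end in the methods), ran TopHat/Cufflinks with Ensembl annotations on hg19 and deposited FPKM. Versions are not given in the sources used here. Strand was not stated.

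Changes were differences of log2(FPKM + 0.1), which understates those of low genes. A gene was counted when its mean was at least 1 FPKM and its change at least 1. The 111 gene IDs on more than 1 row were left out, and no annexin was among them. Depth was searched so that low values of 1860 single-exon genes became whole reads (95.8% to 96.6% did, within 0.05). The search was tested on simulated data for those genes and missed the depth by 0.55%. Reads per gene were FPKM times depth times canonical transcript length (GENCODE v44lift37) less 212 bp. Intervals were Clopper-Pearson, in scipy 1.17.1. RefSeq windows were found for all 10 annexins. PECAM1, on an assembly patch, was not used.

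The members and gene lists were chosen with earlier results of these data known. Named were all annexins, 5 genes nearest ANXA9 in profile, and members of the partner and repair lists at least 2-fold changed in both states, with S100A10, S100A11 and S100A6. Genes behind small counts, single marker genes, and FAM63A and BNIPL, were named after their values were seen. Alternatives were 2 pseudocounts, 3 scalings and 2 filters.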

Additional observations from a re-analysis of the deposited data

Results flagged for a closer look

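ANXA2 and ANXA3 were picked out because their responses pointed in opposite directions in the groups compared. The hypoxia response of ANXA2 was above 0 in scrambled cells and below 0 in TET1-si cells, a difference of -0.64 on the log2(FPKM + 0.1) scale. For ANXA3 the same difference was -0.80. Seen from the knockdown, the TET1-si response of ANXA2 was above 0 under normoxia and below 0 under hypoxia, which is the same difference of -0.64 over the same 4 libraries. The signs held under all 3 scalings and the counting intervals of each response excluded 0. With 1 library per group the difference was not tested.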

How the results depend on the processing

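The annexins' median response to hypoxia in scrambled cells moved to -0.085 with median-of-ratios scaling, 0.0092 with upper-quartile scaling, 0.084 with TPM and 0.14 with a mean of at least 5 FPKM. In TET1-si cells it moved to -0.19 with upper-quartile scaling and -0.16 with TPM. The median TET1-si response moved under hypoxia to -0.32, -0.26 and -0.13 with median-of-ratios scaling, upper-quartile scaling and TPM, and under normoxia to -0.091, -0.043 and 0.13. Median-of-ratios scaling itself brought the median of all genes to -0.0078 under hypoxia and -0.0043 under normoxia, and TPM raised that of the hypoxia responses to 0.16 in both knockdown states. With median-of-ratios scaling 2 annexins were lower under hypoxia after TET1-si, ANXA3 joining, and with a pseudocount of 1 only 1 was higher. A mean of at least 5 FPKM removed ANXA6 and ANXA10, leaving 1 higher and 0 lower after TET1-si in each oxygen state and 0 lower in hypoxia in TET1-si cells. Among all genes past 2-fold, the share of higher ones after TET1-si went from 59.0% to 49.2% under hypoxia and from 68.6% to 56.0% under normoxia with median-of-ratios scaling. In TET1-si cells in hypoxia it went from 59.1% to 69.1% with TPM and to 44.8% with a mean of at least 5 FPKM. Without a filter on level, the hypoxia counts were 4517 higher with 1654 lower (scrambled) or 4803 with 2333 (TET1-si), and the others 4226 and 3083 after TET1-si under hypoxia and 3699 and 2299 under normoxia. No single annexin past 2-fold turned direction under any setting. Below 2-fold, the difference of hypoxia responses of ANXA9 turned from -0.24 to 0.46 with a pseudocount of 1. No paired analysis was possible because each group had 1 library and the labels carry no replicate numbers. Depth limits ANXA9 and ANXA10 in scrambled cells and TET1 throughout, and single libraries leave culture-to-culture spread unmeasured. The reads of ANXA11 rest on a long canonical transcript and may be overstated.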

Other observations

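Beside the 10 genes, 8 other rows of the table carried an annexin symbol, and 3 of them were listed at 0 in every library. ANXA8, ANXA8L1 and ANXA8L2 were the 3 with a mean of at least 1 FPKM, and were singled out after their values were seen. They are near-identical copies on chromosome 10 that share reads, so the level of any one of them is uncertain and their sum is given. Together they measured 28.3 FPKM in N-scr with 51.3 in H-scr, against 33.6 in N-si and 74.6 in H-si. Both hypoxic libraries were above both normoxic ones, by 1.82-fold in scrambled cells and 2.22-fold in TET1-si cells, and the TET1-si library was 1.19-fold higher under normoxia and 1.45-fold higher under hypoxia.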
